A study of Homo sapiens with 12 samples.

Results

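The subject is 10 growth factor and receptor genes: the EGF receptor ligands AREG, EREG, HBEGF and TGFA, the neuregulin NRG1, the receptor gene EGFR, the hepatocyte growth factor HGF, and the VEGF family members VEGFA, VEGFC and PGF. They were chosen by name, with earlier results of these data known, and all 10 were found among the 57500 genes of the deposited read count table. RNA had been sequenced from MRC5, an established line of human embryonic lung fibroblasts, in 4 groups of 3 libraries. Prol were proliferating cells that were not irradiated. Sen(IR) had received 20 Gy of X-rays, which drives these fibroblasts into senescence, and were collected 10 to 12 days later. Sen(IR+UK5099) were irradiated cells given UK5099, an inhibitor of the mitochondrial pyruvate carrier, at 100 μM from 1 day after irradiation. Sen(IR+CTPI2) were irradiated cells given CTPI2, an inhibitor of the mitochondrial citrate carrier SLC25A1, for which the methods list 15 or 30 μM without saying which was sequenced. No group held proliferating cells with an inhibitor, and all libraries came from a single cell line.

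Ligands of the EGF family are made as membrane-anchored precursors, are released by ADAM proteases, and bind receptors of the ErbB family, which signal through the ERK kinase cascade. AREG, EREG, HBEGF and TGFA bind EGFR, and EREG and HBEGF can also bind ERBB4, whereas NRG1 binds ERBB3 and ERBB4. HGF is a fibroblast product that acts on MET of epithelial cells after proteolytic activation. VEGFA and PGF act on FLT1, VEGFA also on KDR, and VEGFC on FLT4 and KDR of blood and lymphatic vessels. Several of these factors belong to the secretory phenotype of senescent fibroblasts.

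AREG and EREG are neighbours on chromosome 4, EREG at chr4:74365145-74388749 and AREG at chr4:74445136-74455005, both on the plus strand of GRCh38, with 56.4 kb between them and EPGN and BTC, other ligand genes of the family, on either side. VEGFC is on the same chromosome at chr4:176683538-176792922, on the minus strand. HBEGF lies at chr5:140332843-140346603 (minus), VEGFA at chr6:43770184-43786487 (plus), EGFR at chr7:55019017-55211628 (plus), HGF at chr7:81699010-81770438 (minus), PGF at chr14:74941834-74955626 (minus) and TGFA at chr2:70447284-70554193 (minus). NRG1 is located where its values are given, and all 10 are protein-coding. The counted reads lie in exons, and at most 1.30% of the exon bases of any of the 10 were shared with another gene.

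The bases upstream of the start sites of 4 members are printed because AREG and EREG, although neighbours, moved in opposite directions after irradiation, and because HBEGF and VEGFC fell with them under UK5099. They are RefSeq starts on GRCh38.p14, read along the strand of the gene from 5′ to 3′ and ending at the base before the start. The region is chr4:74445016-74445135 for AREG, chr4:74365025-74365144 for EREG, chr5:140346604-140346793 for HBEGF and chr4:176792923-176793142 for VEGFC. Capitals mark the CRE core TGACGT, where cAMP-responsive factors can bind, the TATA motif TATAAA, and the GC box GGGCGG, each on either strand.
AREG: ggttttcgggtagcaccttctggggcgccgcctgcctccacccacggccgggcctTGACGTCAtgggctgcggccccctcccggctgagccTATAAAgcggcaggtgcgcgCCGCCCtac
EREG: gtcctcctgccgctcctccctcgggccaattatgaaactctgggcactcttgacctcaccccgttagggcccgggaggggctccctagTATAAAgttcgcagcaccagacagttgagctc
HBEGF: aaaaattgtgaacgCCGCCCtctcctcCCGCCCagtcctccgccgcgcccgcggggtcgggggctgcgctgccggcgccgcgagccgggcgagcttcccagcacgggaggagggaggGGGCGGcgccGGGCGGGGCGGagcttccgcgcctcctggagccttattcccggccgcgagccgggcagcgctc
VEGFC: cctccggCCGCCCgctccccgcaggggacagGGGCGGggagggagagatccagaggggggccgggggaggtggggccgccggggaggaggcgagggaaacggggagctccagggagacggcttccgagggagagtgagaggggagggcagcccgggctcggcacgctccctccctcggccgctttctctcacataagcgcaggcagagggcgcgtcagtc

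In AREG the CRE core was matched on both strands, 65 to 60 and 63 to 58 bases before the start, and in EREG it was not matched in the 250 bases searched. Among 35116 RefSeq windows, 7.10% held a CRE core, 10.7% held TATAAA and 42.6% held a GC box. TATAAA began 29 bases before the AREG start and 32 bases before the EREG start. AREG held 1 GC box, on the minus strand 9 to 4 bases before the start, EREG held none, HBEGF held 5, of which 2 overlap by 1 base, and VEGFC held 2. HGF also fell with UK5099 and had a window, which held none of the 7 motifs searched and is not printed. Neither the hypoxia core ACGTG, found in 18.5% of windows, nor the serum response CArG motif, found in 1.16%, was matched in the 11 windows of the 8 members that had one. NRG1 and VEGFA had no window. The other motifs searched were AP-1 (TGANTCA, 6.57% of windows), matched 2 times in one of the EGFR windows beside 2 matches of TATAAA, and NF-kB (5.21%), matched 1 time in a TGFA window. GC boxes were also matched in TGFA, EGFR and PGF. Such matches describe letters and not binding.

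Library totals ran from 20597736 to 28245693 counts, so that 3 counts, the upper limit that a count of 0 allows, came to between 0.111 and 0.147 CPM (counts relative to library size, scaled by the trimmed mean of M values). These limits cover counting error only. Mitochondrial genes took 3.81% to 4.23% of counts in Sen(IR+UK5099) and 2.36% to 3.28% in the other groups. All 7 fibroblast markers were over the floor in every library. Their summed level was 18507 to 19047 CPM in Sen(IR), 19504 to 22695 in Prol, 16102 to 17774 in Sen(IR+CTPI2) and 9101 to 9735 in Sen(IR+UK5099), where COL1A1, COL1A2, COL3A1 and THY1 were called lower than in Sen(IR). The 6 epithelial markers summed to at most 2.23 CPM and the 5 leukocyte markers to at most 6.84 CPM, the latter from 0.901 to 1.36 in Prol and 5.14 to 5.56 in Sen(IR). Only 2 of the 5 leukocyte markers were over the floor in all libraries of Prol, and likewise 2 in Sen(IR). CD68, one of the 5, shares 85.6% of its exon bases with other genes. The part of these differences in the results was not tested. Nothing in the labels says that libraries of a group came from separate cultures. The figure legends of the study describe the RNA-seq as n = 3 independent experiments (CTPI2) or independent conditions (UK5099). The p-values measure the spread between these libraries. In such bulk samples fewer cells of a kind and less RNA per cell cannot be told apart.

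A difference was called where the adjusted p of edgeR's quasi-likelihood test, over all 16251 genes tested, was below 0.05 and the log2 fold change exceeded 0.5 in size. Of the 10 members 9 were tested, since TGFA did not pass the filter on low counts. PGF passed at 1 to 15 counts per library.

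Irradiated senescent cells held more NRG1, EREG, VEGFA and VEGFC RNA and less AREG RNA than proliferating cells. These were 4 of 9 tested members called higher and 1 called lower, where 47.2% of all genes were called, 24.8% being higher and 22.4% lower. The median log2 fold change was 0.64 over the 9 members and 0.01 over all genes, and the ranges of Prol and Sen(IR) did not overlap in 6 members and in 70.9% of all genes. UK5099 lowered 7 members below Sen(IR), namely AREG, EREG, HBEGF, NRG1, HGF, VEGFA and VEGFC, and raised none, where 20.8% of all genes were called, 12.1% being lower and 8.76% higher. The median of the 9 members was -1.23 and that of all genes 0.01, and the ranges of Sen(IR+UK5099) and Sen(IR) did not overlap in 8 members and in 56.6% of all genes. With CTPI2 none of the 9 was called against Sen(IR) by edgeR or by DESeq2, where 0.166% of all genes were called. The groups did not overlap in 3 members and in 15.1% of all genes. At an unadjusted p below 0.05, 3 members, NRG1, HGF and VEGFC, were lower, and 7.27% of all genes passed that limit in either direction. Sen(IR) is the control in both inhibitor comparisons and the test group in the first, so these comparisons share its 3 libraries.

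**Figure D1:**
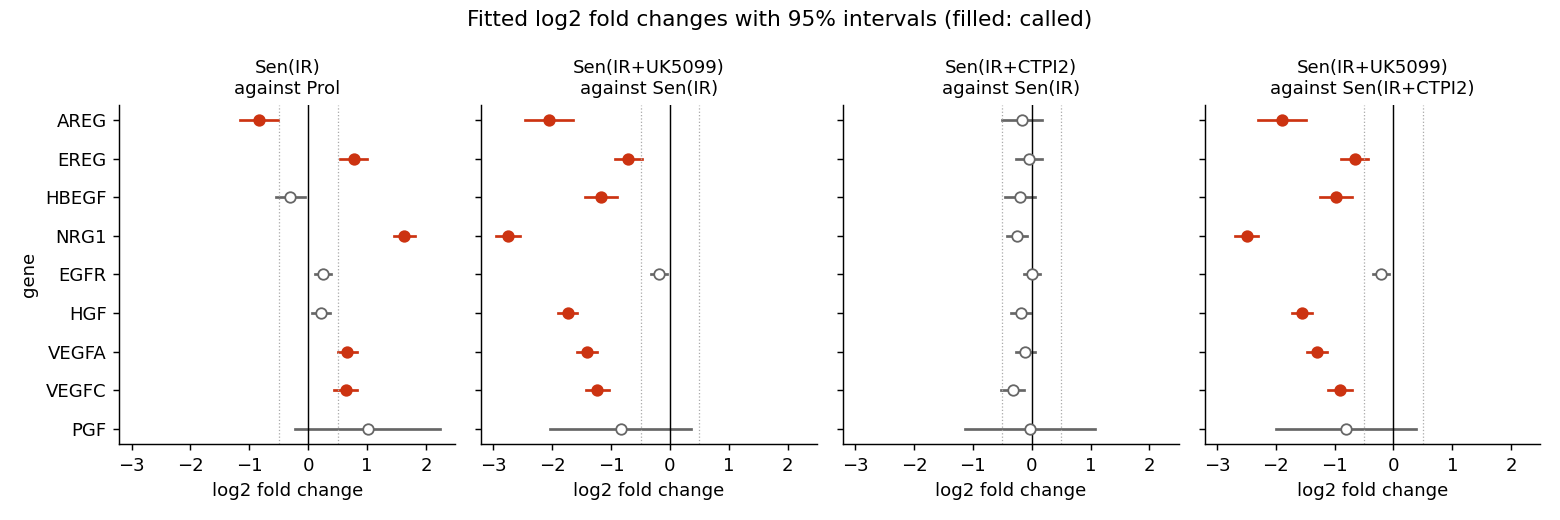
Fitted log2 fold changes (horizontal axis) of the 9 tested members (vertical axis) in 4 comparisons, with 95% intervals. Filled red points passed both limits, open grey points did not, and dotted lines mark 0.5 in either direction. The 7 called members lie left of 0 with UK5099, and the 9 members with CTPI2 lie between -0.33 and 0.01.

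AREG (amphiregulin, ENSG00000109321) was at 14.4, 23.6 and 15.5 CPM in Prol, 10.9, 9.52 and 9.51 in Sen(IR), 2.77, 2.67 and 1.78 in Sen(IR+UK5099), and 8.32, 9.94 and 8.48 in Sen(IR+CTPI2). The 3 Prol libraries lay above all irradiated ones, and the UK5099 libraries lay below all others. Its level fell by 0.83 on the log2 scale after irradiation (SE 0.153, edgeR adjusted p = 4.89e-05). With UK5099 it fell by 2.05 more (SE 0.193, edgeR adjusted p = 1.15e-08), to 24.1% of Sen(IR) and 13.5% of Prol. Prol replicate 2 held the highest AREG level, and without it the fall after irradiation was 0.58, still called.

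EREG (epiregulin, ENSG00000124882) moved the other way after irradiation. It was at 14.9, 19.9 and 13.4 CPM in Prol and 28.0, 27.3 and 26.9 in Sen(IR). With UK5099 it was at 16.8, 17.9 and 15.7 CPM and with CTPI2 at 24.0, 26.0 and 29.6. Sen(IR) and Sen(IR+CTPI2) overlapped, Prol and Sen(IR+UK5099) overlapped, and the former pair of groups lay above the latter. The rise after irradiation was 1.71-fold, a log2 fold change of 0.77 (SE 0.110, edgeR adjusted p = 1.71e-06). With UK5099 EREG fell by 0.70 on the log2 scale (SE 0.109, edgeR adjusted p = 1.47e-05), and its difference from Prol was then 0.07, with a 95% interval from -0.16 to 0.30.

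The genes moved apart after irradiation and both fell, unequally, with UK5099, so the number of AREG counts per EREG count differed between groups. It was 0.966, 1.19 and 1.16 in the Prol libraries, 0.391, 0.349 and 0.353 in Sen(IR), 0.347, 0.382 and 0.287 in Sen(IR+CTPI2), and 0.165, 0.149 and 0.113 in Sen(IR+UK5099). Prol libraries had the highest ratios and UK5099 libraries the lowest, with no overlap of either with another group. This ratio was chosen after the values were seen and is given without a test.

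**Figure D2:**
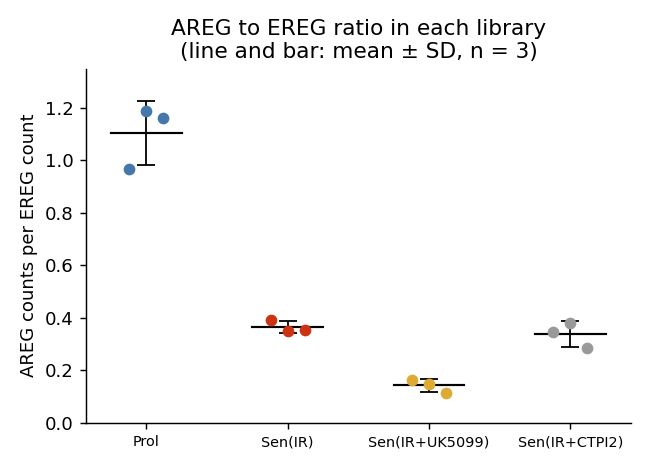
AREG counts per EREG count (vertical axis, a ratio of raw counts) in each library of the 4 groups (horizontal axis), where points are libraries and lines with bars give the mean ± SD. The ratio averaged 1.105 in Prol, 0.364 in Sen(IR), 0.142 in Sen(IR+UK5099) and 0.338 in Sen(IR+CTPI2).

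HBEGF (heparin-binding EGF-like growth factor, ENSG00000113070) was at 27.0, 17.7 and 24.1 CPM in Prol and 20.3, 17.6 and 17.7 in Sen(IR), groups that overlapped. The irradiated cells differed by -0.31 on the log2 scale (SE 0.118, edgeR adjusted p = 0.0257), which is under the fold limit. When a library was left out, this difference ran from -0.460 to -0.175, with an edgeR adjusted p of up to 0.201. With UK5099 HBEGF stood at 8.07, 9.00 and 7.55 CPM, below every library of the other groups, and had fallen by 1.17 (SE 0.130, edgeR adjusted p = 1.41e-07). With CTPI2 it was at 17.9, 15.1 and 15.7 CPM. TGFA (transforming growth factor alpha, ENSG00000163235) was at the floor throughout, with 10 counts over the 12 libraries, none in Prol, 2 in one Sen(IR) library, 2 in one UK5099 library and 3 in each of 2 CTPI2 libraries. No difference in TGFA was detectable at this depth.

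Per kb of exon, AREG, EREG and HBEGF together with TGFA summed to 21.4 ± 2.13 CPM per kb in Prol (SD, n = 3), 17.1 ± 1.08 in Sen(IR), 15.5 ± 0.204 in Sen(IR+CTPI2) and 7.16 ± 0.720 in Sen(IR+UK5099). AREG made up 50.4% ± 9.09 of that sum in Prol (SD, n = 3), 35.6% ± 0.645 in Sen(IR) and 20.3% ± 3.01 in Sen(IR+UK5099). EREG made up 13.1% ± 1.45, 28.1% ± 1.25 and 41.2% ± 1.77 in the same groups. HBEGF averaged between 35.0% and 38.4% in the 4 groups, but its share in the Prol libraries was 44.3%, 24.8% and 40.6%. The summed RNA of AREG, EREG, HBEGF and TGFA was thus lowest with UK5099, and EREG was then its largest part. The ligand genes EGF, BTC and EPGN were not in this sum. With UK5099 they averaged 0.478, 0.383 and 0.114 CPM per kb.

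NRG1 (neuregulin 1, ENSG00000157168) had the largest rise of the tested members that were called after irradiation and the largest fall with UK5099. It was at 25.6, 34.7 and 25.9 CPM in Prol, 94.8, 86.9 and 85.4 in Sen(IR), 12.4, 14.1 and 13.0 in Sen(IR+UK5099), and 71.6, 73.0 and 79.2 in Sen(IR+CTPI2). No group overlapped with another. NRG1 rose 3.10-fold after irradiation, a log2 fold change of 1.63 (SE 0.0881, edgeR adjusted p = 1.95e-13). With UK5099 it was 6.73-fold lower than in Sen(IR), a log2 fold change of -2.75 (SE 0.0953, edgeR adjusted p = 3.29e-16), and it was lower than in Prol by 1.12 on the log2 scale (edgeR adjusted p = 8.86e-10). The difference with CTPI2 was -0.26 (95% interval -0.43 to -0.08, edgeR adjusted p = 0.323), all 3 CTPI2 libraries being below the Sen(IR) libraries. The gene spans bases 31639222 to 32855666 of the plus strand of chromosome 8, and its counts were summed over exons of a long gene with many isoforms, which the table does not separate.

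EGFR (ENSG00000146648), the receptor of AREG, EREG, HBEGF and TGFA, moved little. It was at 193, 190 and 187 CPM in Prol, 225, 235 and 219 in Sen(IR), 211, 185 and 197 in Sen(IR+UK5099), and 209, 217 and 257 in Sen(IR+CTPI2). The Sen(IR) libraries lay above those of Prol and of UK5099. The log2 difference was 0.25 after irradiation (SE 0.0656, edgeR adjusted p = 0.00192) and -0.19 with UK5099 (SE 0.0655, edgeR adjusted p = 0.0193), both under the fold limit, so EGFR was called in none of the 6 comparisons made. Among the other ErbB receptors ERBB2, the partner without a ligand of its own, rose from 55.3 to 94.8 CPM after irradiation (log2 fold change 0.78, edgeR adjusted p = 8.13e-11) and was at 116 CPM with UK5099, a difference of 0.29 that was not called. The NRG1 receptors did not pass the filter. ERBB3 had at most 7 counts and ERBB4 at most 9 counts in any library.

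**Figure D3:**
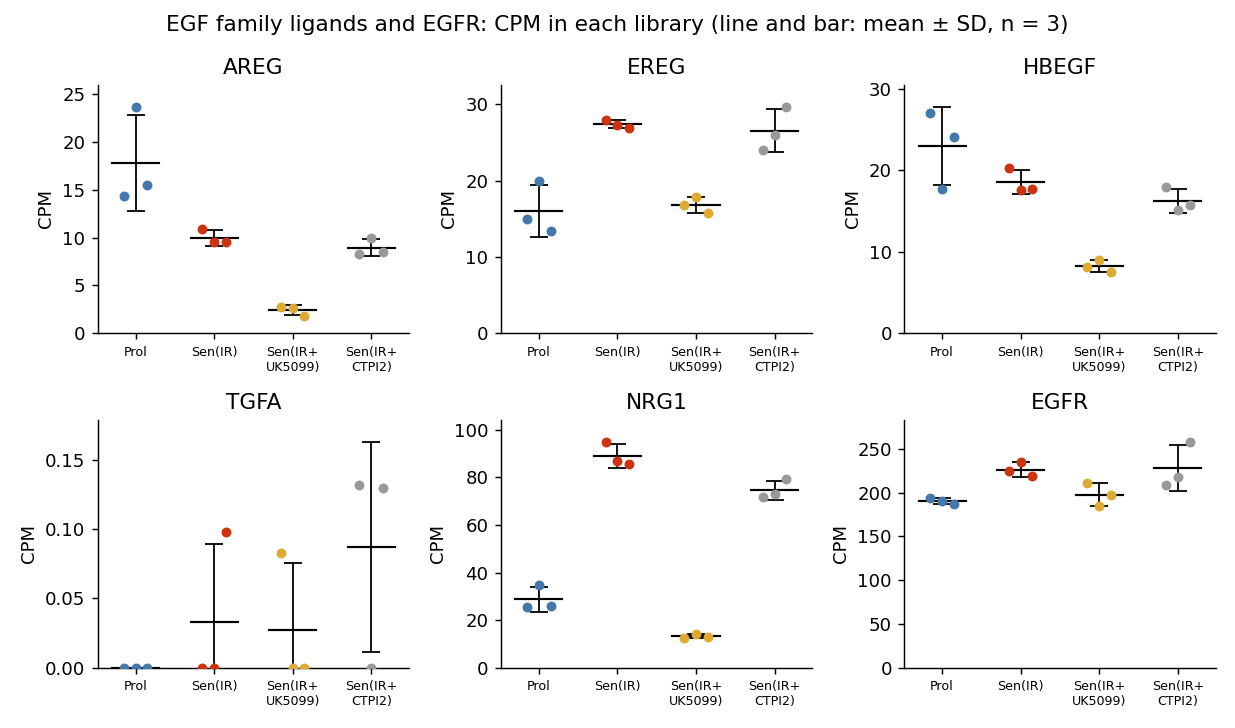
CPM (vertical axis, from 0) of the 5 ErbB ligands and EGFR in each library of the 4 groups (horizontal axis), where points are libraries and lines with bars give the mean ± SD. NRG1 was at 28.8 CPM on average in Prol, 89.0 in Sen(IR) and 13.2 in Sen(IR+UK5099), whereas EGFR stayed between 185 and 257 CPM and TGFA did not exceed 0.131.

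HGF (hepatocyte growth factor, ENSG00000019991) had the highest level of the 10 members, per kb of exon as well as in CPM, in each group. It was at 663, 884 and 667 CPM in Prol, 851, 844 and 880 in Sen(IR), 266, 251 and 253 in Sen(IR+UK5099), and 712, 751 and 803 in Sen(IR+CTPI2). The UK5099 libraries lay far below all others, and Prol overlapped with Sen(IR) through its replicate 2. The difference after irradiation was 0.22 (SE 0.0774, edgeR adjusted p = 0.0166), under the fold limit, and 0.37 without Prol replicate 2. With UK5099 HGF fell 3.34-fold, by 1.74 on the log2 scale (SE 0.0800, edgeR adjusted p = 5.41e-14), and was lower than in Prol by 1.52 (edgeR adjusted p = 8.12e-14). With CTPI2 it differed by -0.18 (95% interval -0.35 to -0.02, edgeR adjusted p = 0.592).

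VEGFA (ENSG00000112715), the main angiogenic member of its family, was at 47.4, 62.2 and 51.8 CPM in Prol, 88.1, 82.0 and 85.2 in Sen(IR), 33.0, 31.9 and 31.0 in Sen(IR+UK5099), and 85.7, 79.0 and 71.9 in Sen(IR+CTPI2). It rose 1.58-fold after irradiation (log2 fold change 0.66, SE 0.0789, edgeR adjusted p = 1.29e-07). With UK5099 it fell by 1.41 (SE 0.0817, edgeR adjusted p = 3.10e-12), to 37.6% of Sen(IR) and 59.4% of Prol. The groups were thus ordered Sen(IR) with Sen(IR+CTPI2), then Prol, then Sen(IR+UK5099), and the first pair overlapped.

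VEGFC (ENSG00000150630), the lymphatic growth factor, was at 76.9, 53.7 and 76.7 CPM in Prol, 111, 103 and 109 in Sen(IR), 47.4, 49.2 and 40.7 in Sen(IR+UK5099), and 86.2, 83.9 and 87.6 in Sen(IR+CTPI2). No groups overlapped. Its log2 fold change was 0.64 after irradiation (SE 0.0943, edgeR adjusted p = 3.00e-06). That call rested on Prol replicate 2, the lowest library of its group, without which the difference was 0.49 (edgeR adjusted p = 5.83e-07), under the fold limit. With UK5099 VEGFC fell by 1.23 (SE 0.0965, edgeR adjusted p = 5.47e-10). With CTPI2 it differed by -0.33 (95% interval -0.52 to -0.13, edgeR adjusted p = 0.208), with no overlap between the groups.

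PGF (placental growth factor, ENSG00000119630) was near the floor. It was at 0.0426, 0.343 and 0.297 CPM in Prol, 0.489, 0.710 and 0.196 in Sen(IR), 0.124, 0.333 and 0.310 in Sen(IR+UK5099), and 0.657, 0.371 and 0.346 in Sen(IR+CTPI2). Prol and Sen(IR) overlapped, and the 95% interval of their log2 difference ran from -0.22 to 2.24. VEGFB and VEGFD were not part of the comparison per kb of exon. Of VEGFA, VEGFC and PGF, VEGFC was the largest per kb. It was at 41.2 ± 1.61 CPM per kb in Sen(IR) (SD, n = 3), where VEGFA was at 5.90 ± 0.210. With the length of 1 canonical transcript, which is much shorter than the exon union of VEGFA, the values were 47.6 and 23.6 CPM per kb.

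**Figure D4:**
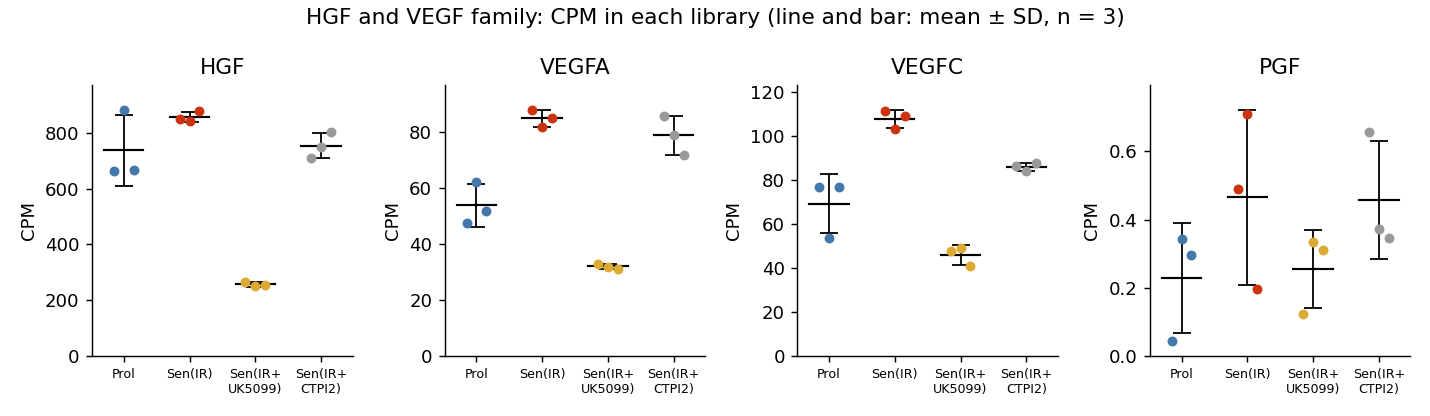
CPM (vertical axis, from 0) of HGF, VEGFA, VEGFC and PGF in each library of the 4 groups (horizontal axis), where points are libraries and lines with bars give the mean ± SD. HGF averaged 858 CPM in Sen(IR) and 257 in Sen(IR+UK5099), and VEGFA averaged 85.1 and 32.0, while PGF did not exceed 0.710.

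Set directly against each other, the inhibitors differed in 7 of the 9 members, which were lower with UK5099 than with CTPI2, where 19.9% of all genes were called and 11.7% were called lower. The log2 difference was -2.50 for NRG1 (edgeR adjusted p = 2.38e-15), -1.89 for AREG, -1.56 for HGF, -1.30 for VEGFA, -0.98 for HBEGF, -0.91 for VEGFC and -0.66 for EREG. EGFR differed by -0.20 (95% interval -0.34 to -0.07). The concentrations of the inhibitors differed, so this contrast sets one treatment beside another and not potencies. Against Prol, 6 members were called lower with UK5099 and none higher, where 53.1% of all genes were called and 26.2% were called lower. EREG, EGFR and PGF were the members not called. With CTPI2, NRG1, EREG and VEGFA were higher than in Prol and AREG and HBEGF lower, where 46.8% of all genes were called, 24.8% being higher and 21.9% lower. HBEGF lay at the fold limit there (-0.50) and was not called with DESeq2, with other scalings or with the replicate number as a block, and VEGFA was not called without Prol replicate 1 or CTPI2 replicate 1.

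The other genes of these pathways were read from 8 lists, whose counts stand beside shares over all genes of 24.8% higher and 22.4% lower after irradiation and of 8.76% higher and 12.1% lower with UK5099. None of their tested genes was called with CTPI2 by edgeR. Of the 6 other ErbB ligands 3 were tested. EGF rose after irradiation from 2.59 to 4.94 CPM (log2 fold change 0.94), and BTC, the betacellulin gene beside AREG, rose with UK5099 by 1.76, from 0.299 to 1.02 CPM (edgeR adjusted p = 0.00841). With UK5099 BTC thus moved opposite to its neighbours AREG and EREG, at low counts. It had at most 7 counts in a Sen(IR) library and at most 45 with UK5099, where its libraries ran from 0.455 to 1.74 CPM. BTC was below the level set for naming list genes and was named after its values were seen.

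Among the 8 genes of ligand shedding, 5 were higher and 1 lower after irradiation (median log2 fold change 0.67), and 3 were lower with UK5099 (median -0.43), against medians of 0.01 over all genes in both comparisons, of which 24.8% were higher and 22.4% lower after irradiation and 12.1% lower with UK5099. RHBDF2, which carries the sheddase ADAM17 to the surface, rose by 2.53 (SE 0.125, edgeR adjusted p = 3.60e-14) and was lower with UK5099 by 1.85 on the log2 scale (edgeR adjusted p = 1.06e-11). ADAM19 was lower by 1.53 after irradiation and lower again with UK5099, with a log2 fold change of -1.37, and ADAM12 was lower with UK5099, with a log2 fold change of -0.89. RHBDL2 rose by 0.96 after irradiation. ADAM17 itself was at 47.0 CPM in Prol, 90.3 in Sen(IR) and 105 in Sen(IR+UK5099).

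Of the 16 feedback inhibitors of ErbB signalling, 3 were higher and 5 lower after irradiation (median -0.25), and 5 were lower with UK5099 (median -0.37). The 8 of 16 called after irradiation are close to the 47.2% of all genes called. LRIG1, which promotes receptor degradation, rose by 1.97, and the ubiquitin ligase gene CBLB rose by 1.18, whereas the Sprouty gene SPRY1 had a log2 fold change of -1.56. With UK5099 the log2 fold changes were -1.20 for SPRY4, -1.02 for SPRY1 and -1.01 for DUSP4, an ERK phosphatase. LRIG1 shares 37.9% of its exon bases with SLC25A26.

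The 14 ERK-responsive genes included 3 that were higher and 7 that were lower after irradiation, and 9 that were lower and none that was higher with UK5099, with medians of -0.64 and -1.05 over the 14. Of all genes, 24.8% were higher and 22.4% lower after irradiation, and 12.1% were lower and 8.76% higher with UK5099. ETV4 had a log2 fold change of -2.56 and EMP1 of -2.18 after irradiation, while LIF, a cytokine of the interleukin 6 family, rose by 2.47. With UK5099 the log2 fold changes were -2.35 for IER3, -1.69 for LIF and -1.67 for PLAUR, the urokinase receptor gene. IER3 shares 38.9% of its exon bases with other genes.

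In the HGF route 5 of 8 genes were tested, with medians of 0.07 after irradiation and 0.48 with UK5099. MET, the HGF receptor, was at 65.6 CPM in Prol and 39.7 in Sen(IR), a log2 fold change of -0.73 (edgeR adjusted p = 6.95e-09), and at 44.3 with UK5099, a difference of 0.16 that was not called. PLAU, the urokinase gene, whose product is among the proteases reported to activate HGF, was at 1548 CPM in Prol, 1625 in Sen(IR), 1412 in Sen(IR+CTPI2) and 120 in Sen(IR+UK5099), a log2 fold change of -3.76 (SE 0.0706, edgeR adjusted p = 5.76e-21). PLAU shares 31.0% of its exon bases with C10orf55. GAB1, the docking protein of MET, was higher with UK5099 by 1.09, and so was SPINT2, an inhibitor of HGF activation, by 0.82. SPINT1 and SPINT2 were higher after irradiation by 1.07 and 1.34. Both SPINT genes were named after their values were seen.

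Of the 7 other VEGF family genes and receptors 5 were tested, with medians of -0.30 after irradiation and -0.72 with UK5099. After irradiation KDR had a log2 fold change of -2.13 and FLT1 of -0.55, and NRP2, a co-receptor of VEGFC, rose by 0.86. With UK5099 4 were lower, KDR (log2 fold change -1.78), FLT1 (-1.30), NRP1 (-0.72) and NRP2 (-0.71), the last named after its values were seen. KDR was at 4.21 CPM in Prol and 0.274 with UK5099, and FLT4, the VEGFC receptor, had at most 10 counts in a library. The 5 endothelial markers summed to 154 to 200 CPM in Prol, 354 to 366 in Sen(IR), 206 to 236 in Sen(IR+UK5099) and 298 to 329 in Sen(IR+CTPI2), nearly all of it from TEK. CDH5, the defining endothelial cadherin, had at most 5 counts and PECAM1 at most 8 counts in any library.

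Among 13 of the 14 hypoxia-inducible genes that were tested, 6 were higher and none lower after irradiation (median 0.38), and 5 were lower and none higher with UK5099 (median -0.14). All 6 of the 13 called after irradiation were higher, where 24.8% of all genes were called higher and 22.4% lower. With UK5099 20.8% of all genes were called and 12.1% were lower. P4HA1, a collagen prolyl hydroxylase subunit, rose by 1.22 and then had a log2 fold change of -1.42 with UK5099. NDRG1 rose by 0.99 and then had -0.96. ANKRD37, of whose exon bases 40.4% are shared with UFSP2, rose by 1.01 after irradiation, and BNIP3 had a log2 fold change of -0.64 with UK5099. VEGFA is itself a hypoxia-inducible gene and was not counted in this list.

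**Figure D5:**
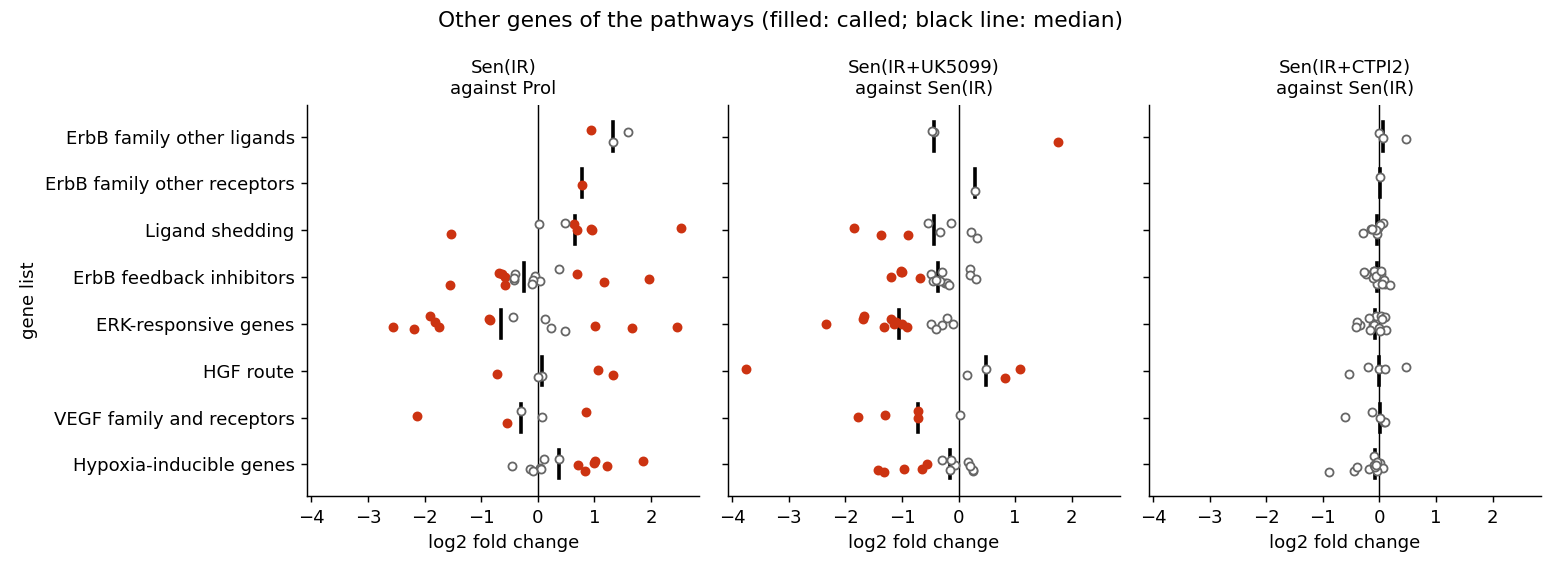
Fitted log2 fold changes (horizontal axis) of the tested genes of 8 pathway lists (vertical axis) in 3 comparisons, where each point is a gene, filled where called, and a black line gives the median of the list. With UK5099, 9 of 14 ERK-responsive genes were called lower, and no gene was called with CTPI2.

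Some genes followed a member closely over the 12 libraries, by the root mean square distance between log2 CPM values centred on their own means. The nearest of 13370 genes to NRG1 was FIBIN, at a distance of 0.149 where NRG1 itself varied by 1.11 about its mean, followed by IFITM1 at 0.153. For HGF they were F3, the tissue factor gene, at 0.123, and TIMP3, a metalloproteinase inhibitor, at 0.128. AREG was followed by CHAC1, a glutathione-degrading enzyme of the stress response, at 0.214, and COL16A1 at 0.217. EREG was followed by PRICKLE2 at 0.0892 and NRP2 at 0.0898. HBEGF was followed by ARHGAP22 at 0.116 and the feedback inhibitor SPRY4 at 0.138. VEGFA was followed by ITGBL1 at 0.105 and RIPOR3 at 0.109, and VEGFC by LRRN4CL at 0.132 and TPBG at 0.150. EGFR, which varied by 0.139 about its mean, had ADAR at 0.0667 and FEM1B at 0.0704. The genes nearest to PGF, AC108676.1 and AC022007.1, lay at 0.385 and 0.393. All points of these distances share the same 12 libraries, and no test was made.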

How the data were processed

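RNA of 12 MRC5 libraries was sequenced as paired reads of 150 bases. The authors deposited a table of raw read counts per gene, not normalized. Per the labels and methods, reads were trimmed with Trimmomatic 0.36, aligned to GRCh38 with STAR 2.5.2b and counted over exons with featureCounts of Subread 1.5.2. Whether counting used strand is not given in the sources used here. Columns were assigned by their names. The whole table was fitted with edgeR 4.0.16 in R 4.3.3 (filterByExpr, TMM scaling, quasi-likelihood test, all 12 libraries, group as the only term), with Benjamini-Hochberg adjustment over 16251 genes, 99.9% of counts. Calls needed an adjusted p below 0.05 and a log2 fold change over 0.5. SEs are the fold change over the square root of F. Totals of 20597736 to 28245693 counts set the precision. Replicates of a group differed by more than sampling noise (chi-square per gene 2.28 to 13.6). Same-numbered replicates were checked for pairing and did not deviate together (correlations -0.05 to 0.04), so no block was used. Levels per kb used exon unions of GENCODE 44. Calls of edgeR and DESeq2 were run on simulated counts with known changes, which did not test the other steps. Alternatives were DESeq2 1.42.0, other scalings, no filter, 2 groups only, a replicate block, a limit of 1, unadjusted p and leaving out each library, and canonical transcript length was added after the data were seen. Named genes were all 10 members, up to 3 called genes of each list with the largest changes, the receptors, and the 2 genes most alike each member. Members and lists were chosen with earlier results of these data known.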

Additional observations from a re-analysis of the deposited data

How the results depend on the processing

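With a fold limit of 1 on the log2 scale, called members numbered 1 for Sen(IR) against Prol (NRG1), 4 for UK5099 against CTPI2 (AREG, NRG1, HGF and VEGFA) and 1 for CTPI2 against Prol (NRG1), by the construction of that limit. No other planned setting moved a count of called members by over 1.5 times, apart from leaving out libraries, with which CTPI2 against Prol ran from 3 (without Prol replicate 1) to 5 members and Sen(IR) against Prol from 4 to 5, while UK5099 against Sen(IR) stayed at 7. With CTPI2 against Sen(IR) the sign of differences near 0 turned. PGF was at 0.00541 with the replicate block and ran from -0.384 to 0.389 when a library was left out, EGFR ran from -0.0851 to 0.0701 and EREG from -0.130 to 0.0205. A fit of only those groups in edgeR gave adjusted p = 0.0196 for NRG1, 0.0377 for HGF and 5.94e-04 for VEGFC, a fit without the filter on low counts 0.0286, 0.0390 and 1.41e-04, and DESeq2 0.285, 0.615 and 0.137, with none past the fold limit. Over all genes, the 27 called with CTPI2 became 46 without the filter, 15 to 21 when a library was left out, 11 at the limit of 1 and 296 at unadjusted p. At the limit of 1 the genes called fell to 4030 after irradiation, 1511 with UK5099, 1417 between the inhibitors, 4967 for UK5099 against Prol and 4028 for CTPI2 against Prol. Replicate numbers did not pair the libraries, and the block moved the number of genes called from 7677 to 7649 after irradiation, 3386 to 3360 with UK5099 and 27 to 25 with CTPI2, and changed no other member's call than HBEGF in CTPI2 against Prol, where 4 members were then called. Upper-quartile scaling shifted the median of all genes by 0.12 in Sen(IR) against Prol. Levels of PGF and TGFA are limited by depth.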
